A study of Arabidopsis thaliana with 28 samples.

Results

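FWA (AT4G25530) and SDC (AT2G17690) are a pair of Arabidopsis thaliana genes that vegetative tissue keeps silent through RNA-directed DNA methylation (RdDM). RNA bound by RNA polymerase V (Pol V) was described over both genes in windows of 200 bp. The rule took every window of the deposited count table whose midpoint lies in the gene or within 1 kb of it. It gave 40 windows for FWA and 26 for SDC, 66 of 794311 windows in all. The RNA was measured by IPARE, which sequences the 5′ ends of RNA pulled down with an antibody against NRPE1, the largest Pol V subunit. All plants were of the Columbia ecotype, and the IPARE libraries came from whole seedlings of 18 days. Wild-type Col-0 had 6 libraries and nrpe1, a mutant of that subunit, had 5. The mutants spt5l, ago4, dms5-1 and drd3-3 had 2 libraries each. The mutants drd1, dms3, suvh2 and suvh9 and the double mutant suvh2/suvh9 had 1 library each. Methylation was measured by bisulfite sequencing in Col-0 and nrpe1 leaves taken at 3.5 weeks. Library titles also carry a tag, none or gp2 to gp6, which is called a set here and whose meaning the labels do not state.

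In RdDM, Pol V transcribes target loci, and small RNAs bound by ARGONAUTE4 pair with these transcripts. The methyltransferase DRM2 then methylates cytosines in every sequence context, and methylation at CHH sites (H is A, C or T) depends most on renewed targeting. CG methylation is copied after replication by MET1 without small RNAs. FWA encodes a homeodomain transcription factor of the HD-ZIP IV family that is expressed from the maternal copy in endosperm, and its ectopic expression delays flowering. Its silencing depends on methylation of tandem repeats at the start of the gene. SDC encodes an F-box protein, and its release in mutants without non-CG methylation gives small plants with curled leaves. Its silencing depends on methylated repeats upstream of the gene.

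Summed window counts per library lay between 785943, in drd3-3 of gp5, and 6957714, in ago4 of gp2. Ribosomal DNA took 29.1% to 41.4% of the counts in Col-0 and 49.6% to 63.2% in nrpe1, so values in CPM (counts per 1000000 window counts) fall or rise with that share. The locus of NRPE1 itself (AT2G40030, 1 kb flanks included) had 22.8 to 39.9 CPM in Col-0 and 0 to 5.33 in nrpe1. IPARE reads Pol V-bound RNA and the position of the mutation is not stated in the labels, so this checks no label. In whole seedlings, fewer cells with a transcript and less transcript per cell cannot be told apart. The gene table carries no strand, so ends of genes are called lower and higher by coordinate. SDC overlaps the annotated gene AT2G17695, and 16 of SDC's 26 windows have their midpoint in both. Reads of the 2 genes cannot be told apart there.

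At FWA the Pol V reads sat in a single short block. The deposited classes marked 6 of the 40 windows as RdDM, 7 as transcribed by Pol V outside RdDM, and 27 as not transcribed by Pol V. The 6 RdDM windows were contiguous, at chr4:13038001-13038950 (TAIR10), and spanned 950 bp across the lower-coordinate end of the gene. In the summed Col-0 libraries these windows held 27, 116, 136, 127, 109 and 45 reads in order of coordinate. The next window on the lower side held 4 reads and the next on the higher side held 6. Over the rest of the gene body no window had more than 4 reads in Col-0. The block had sharp edges on both sides, even though adjacent windows overlap by 50 bp and the same read can count in both.

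The same 6 FWA windows held 0, 0, 1, 0, 1 and 0 reads in nrpe1. In spt5l, which lacks a partner of Pol V that carries ARGONAUTE-binding repeats, they held 5, 57, 59, 42, 35 and 8. In ago4 they held 1, 47, 52, 32, 27 and 0. Both mutants thus kept reads in the 4 middle windows. The outermost window on the higher side, with 45 reads in Col-0, had none in ago4. Of the Col-0 reads 23 were in the untagged library, and 8 and 3 in gp2 and gp3, the sets of ago4. This window was picked after its values were seen. On the lower edge the ago4 libraries had 1 read against 27 in Col-0, of which 16 were in the untagged library.

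The mutants of the factors that place Pol V on chromatin kept unequal numbers of reads in this block. DRD1 is a SNF2-like remodelling protein and DMS3 a hinge-domain protein of the same complex, and both are needed for Pol V to bind its targets. The drd1 library had 0 reads in all 6 windows, and the dms3 library had 1 read, in the second window. SUVH2 and SUVH9 are related proteins that bind methylated DNA and help recruit Pol V. The suvh2 library held 0, 13, 23, 17, 8 and 3 reads, and the suvh9 library held 2, 31, 28, 28, 22 and 2. The double mutant held 0, 2, 3, 5, 4 and 0. The dms5-1 libraries had 1 read in each of the first 2 windows, and the drd3-3 libraries had none in the block. Reads remained over the same middle windows in suvh2, suvh9 and the double mutant.

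At SDC the reads formed a longer block that ran past the 1 kb limit. Of the 26 windows, 7 were of the RdDM class, 8 of the non-RdDM Pol V class and 11 of neither. The 7 RdDM windows covered chr2:7681201-7682300, or 1100 bp, and 6 of them lay outside the gene on its lower-coordinate side. In Col-0 they held 49, 63, 66, 74, 80, 124 and 67 reads. The 3 windows that followed inside the gene held 44, 12 and 7. The RdDM class continued without a gap for 4 more windows below the limit, which held 17, 37, 62 and 57 reads, so the whole run of 11 windows spanned 1700 bp from chr2:7680601. The first window inside the limit held 49 reads and the first outside it held 57, so the rule divides the block rather than an empty stretch. At FWA the first window inside on the lower side held 3 reads and the first outside held 1.

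**Figure D1:**
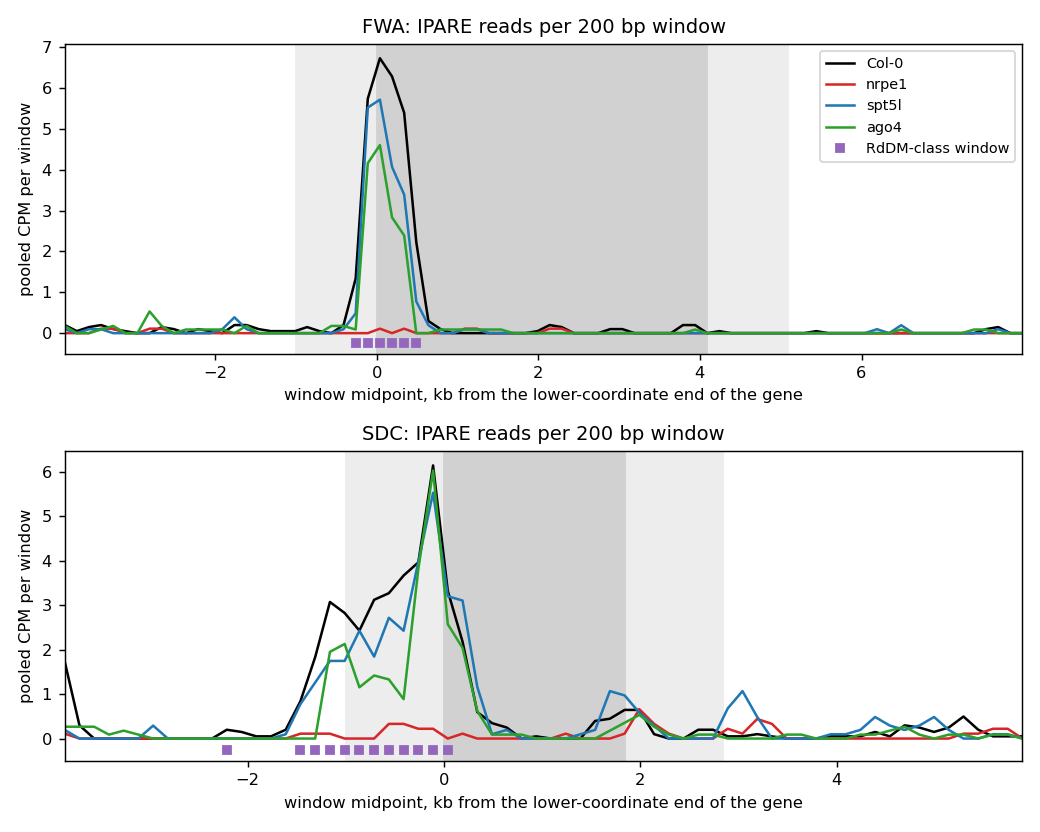
Pooled IPARE reads per 200 bp window, in CPM, against the distance of the window midpoint from the lower-coordinate end of FWA (top) and SDC (bottom), for Col-0, nrpe1, spt5l and ago4. Dark grey is the gene, light grey the 1 kb on either side, and purple squares mark windows of the RdDM class; FWA has 1 narrow peak with 136 Col-0 reads at its top, and SDC has a broader one with 124.

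The profile of reads by window shows the difference in shape: FWA rose and fell within 950 bp, and SDC reads were spread over 1700 bp with their peak just outside the gene. In nrpe1 the 7 RdDM windows of SDC held 0, 0, 3, 3, 2, 2 and 0 reads. In spt5l they held 25, 19, 28, 25, 41, 57 and 33, and the tallest window was the same as in Col-0. In ago4 they held 13, 16, 15, 10, 43, 68 and 29. The last 3 of these windows thus held most of the ago4 reads, as they also did in Col-0 and spt5l.

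The distal end of the SDC run, the 4 windows below the 1 kb limit, held 173 reads in Col-0, 57 in spt5l, 46 in ago4, 17 in suvh9 and 7 in suvh2. It held 3 in nrpe1, 2 each in drd3-3 and the double mutant, and 0 in drd1, dms3 and dms5-1. At chr2:7680601-7680800 and chr2:7680751-7680950 the ago4 libraries had 0 reads, as had the suvh2 library, against 17 and 37 in Col-0 and 8 and 13 in spt5l. With a floor of 3 counts over both ago4 libraries, the second window was 6.89-fold lower than in Col-0 per library total. The lower limit of its counting interval was 5.33-fold. The next 2 windows toward the gene held 22 and 24 reads in ago4 and 3 and 4 in suvh2. These windows were picked after their values were seen, lie outside the 1 kb limit and carry no test.

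The single libraries of gp4 held unequal numbers of reads in the SDC block. The drd1 library had 0, 0, 0, 2, 3, 2 and 0 reads in the 7 RdDM windows, and dms3 had 0, 0, 0, 0, 1, 1 and 2. The suvh2 library had 2, 5, 0, 5, 15, 17 and 6, and suvh9 had 7, 14, 22, 15, 11, 13 and 10. The double mutant had 0, 3, 3, 5, 7, 6 and 3. The drd3-3 libraries had reads only in the last 3 of these windows, with 4, 4 and 3, and in the window after them, with 7. The dms5-1 libraries had 1 read in each of the last 2.

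A separate, low patch of reads lay at the higher-coordinate end of SDC. The windows from chr2:7683601 to chr2:7684250 held 8, 9, 13 and 13 reads in Col-0. In the last of these, chr2:7684051-7684250, nrpe1 had 6 reads, drd1 had 6 and dms3 had 4. The 16 windows shared with AT2G17695 held 14 of the 25 SDC reads in nrpe1 and 60 of 646 in Col-0. The remaining 10 windows held 11 reads in nrpe1 and 586 in Col-0. The shared windows thus held most of the nrpe1 reads of the locus and few of those in Col-0, and from which gene they came was not tested.

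Over the whole locus, FWA reads were lower in every nrpe1 library than in any Col-0 library. The 6 Col-0 libraries had 14.1 to 43.7 CPM with a median of 23.6, a mean of 27.5 ± 10.9 (SD, n = 6). The nrpe1 libraries had 0.478, 0, 1.74, 0 and 2.38 CPM (untagged set, gp3, gp4, gp5 and gp6), from 1, 0, 3, 0 and 2 counts. Those of gp4 and gp6 include adjacent windows, which overlap, so 1 read may count in both. The groups did not overlap, and how many of all loci show this was not counted. Pooled over libraries, FWA was 44.8-fold lower in nrpe1 (95% counting interval 20.5 to 123).

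At SDC the Col-0 libraries lay closer together. Col-0 had 28.3 to 35.9 CPM with a median of 31.8 and a mean of 32.0 ± 2.91 (SD, n = 6). In nrpe1 the values were 3.82, 2.37, 2.91, 2.67 and 1.19 CPM in the same order of sets, from 8, 7, 5, 4 and 1 reads. These groups did not overlap either, and how many of all loci show no overlap was not counted. The pooled level was 11.6-fold lower in nrpe1 (7.82 to 18.1).

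In edgeR's quasi-likelihood test with TMM scaling over 20828 gene loci, both loci were lower in nrpe1. The nrpe1 libraries held at most 3 FWA reads and 8 SDC reads, so both loci passed the count filter through Col-0. The calls thus describe these loci and support nothing further, and the same holds for other loci below with few nrpe1 reads. The log2 change was −4.0 ± 0.63 (SE) for FWA (adjusted p = 8.9e-06) and −2.26 ± 0.43 for SDC (adjusted p = 7.3e-05). Loci called lower made up 51.2% of those tested (10655) and loci called higher 31.5% (6559), and the median of all loci was −1.24. Lower calls are therefore common, and both members lay below the median. With libraries scaled to their counts in windows not transcribed by Pol V, ribosomal DNA left out, FWA was −5.85 and SDC −4.25. That scaling, called class scaling below, moved the median of all loci to −3.28 and gave 13533 lower loci and 1 higher. The labels tie the class lists to Col-0 and nrpe1 of the untagged set, gp3 and gp4. Class scaling is therefore not independent of this comparison. Without the 16 windows shared with AT2G17695, the SDC change was −3.23 ± 0.57 (adjusted p = 2.7e-05).

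No window of either gene had enough reads to enter the window-level test, in which 15296 windows were tested and 77.6% were lower and 18% higher in nrpe1. With a looser filter of at least 5 reads over the 11 libraries, 8 FWA windows and 16 SDC windows were tested. Of these, 6 and 8 were lower and none was higher, where 29.9% of 298470 windows were lower. A window passed that filter mainly through its Col-0 reads, so these counts describe the windows and support nothing further.

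Library by library, the tall FWA window at chr4:13038301-13038500 had 57, 28, 21, 16, 11 and 3 reads in Col-0 of the untagged set and gp2 to gp6. In nrpe1 it had 1 read in the untagged set and 0 elsewhere. Spt5l had 37 and 22 reads, ago4 37 and 15, suvh2 23, suvh9 28 and the double mutant 3. All other libraries had 0. Every library of Col-0, spt5l, ago4 and the suvh mutants thus had reads in this window.

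The FWA window at chr4:13038601-13038800 had 47, 28, 8, 7, 8 and 11 reads in the Col-0 libraries in the same order. The single nrpe1 read there was in gp4. Spt5l had 17 and 18 reads and ago4 19 and 8. At the lower edge, chr4:13038001-13038200, Col-0 had 16, 5, 1, 4, 0 and 1, so this edge rested mainly on the untagged library.

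The tallest SDC window, chr2:7681951-7682150, had 41, 18, 35, 9, 13 and 8 reads in the Col-0 libraries and 1, 0, 0, 1 and 0 in nrpe1. Spt5l had 42 and 15, and ago4 had 54 and 14. The 4 drd3-3 reads in it were all in gp5. The window at chr2:7681651-7681850 had 25, 8, 19, 11, 8 and 3 reads in Col-0, 10 in ago4 of gp2 and 0 in ago4 of gp3. The window at chr2:7681351-7681550 had 16, 19, 7, 11, 5 and 5 reads in Col-0 and none in nrpe1. Col-0 had reads in each library in all 3 windows, which follows in part from their choice by Col-0 counts.

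The Col-0 reads of FWA were almost wholly in its RdDM windows. The share was 90.1% to 100% of the locus over the 6 Col-0 libraries. In gp2, gp5 and gp6, whose Col-0 libraries the labels do not name as input to the class lists, it was 90.1%, 100% and 92.3%. At SDC the share in RdDM windows was 70.6% to 84.9%, and 81.8%, 83.3% and 70.6% in those 3 libraries. Per length, the RdDM windows had 27.2 ± 10.7 CPM per kb at FWA and 23.2 ± 2.54 at SDC (SD, n = 6), which overlap. Over all windows of the locus the levels were 4.55 ± 1.80 and 8.10 ± 0.74 CPM per kb, since FWA is the longer gene.

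Spt5l and ago4 kept reads at both genes. FWA had 23.2 and 17.7 CPM in spt5l (untagged set and gp3) and 16.2 and 13.2 in ago4 (gp2 and gp3), against 14.1 to 43.7 in Col-0. SDC had 35.8 and 25.2 CPM in spt5l and 27.2 and 12.9 in ago4, against 28.3 to 35.9. At least 1 library of each mutant lay within the Col-0 range, except ago4 at SDC, where both lay below it.

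In the fit over 28535 loci and 19 libraries, neither gene passed in spt5l or ago4. FWA changed by −0.60 ± 0.51 (SE) in spt5l (adjusted p = 1) and −0.56 ± 0.51 in ago4 (0.976). SDC was at −0.25 ± 0.48 and −0.36 ± 0.48 (both adjusted p = 1). Of all loci, 0.449% were lower and 0.0771% higher in spt5l, and 2.24% were lower and 2.24% higher in ago4 (638 and 639 loci; 692 and 208 under class scaling). Leaving out the ago4 library of gp3 moved the SDC value to 0.0066. These comparisons share the Col-0 libraries.

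Read against the Col-0 library of its own set, the library with the lower share was not the same at the 2 genes. FWA kept 53.1% of the Col-0 level in spt5l of the untagged set (42.3 to 66.3) and 126% in gp3 (90.9 to 174), per library total. It kept 43.6% (33.8 to 55.9) in ago4 of gp2 and 93.6% (64.7 to 135) in ago4 of gp3. SDC kept 99.6% and 89.1% in the 2 spt5l libraries.

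In ago4, SDC kept 91.5% (72.5 to 116) in gp2 and 45.6% (32.9 to 62.7) in gp3, in share of Col-0 the opposite order to FWA. In CPM, ago4 of gp2 was the higher library at both genes. The FWA level of Col-0 itself was 37.3 CPM in gp2 and 14.1 in gp3, so the order of the FWA shares follows the Col-0 libraries. The log2 ratio of FWA to SDC reads needs no scaling between libraries and was −0.31 ± 0.52 in Col-0 (SD, n = 6), −0.57 ± 0.08 in spt5l and −0.36 ± 0.54 in ago4 (n = 2 each). An exact two-sided permutation test gave p = 0.679 for spt5l and 0.964 for ago4, both 0.964 after adjustment over the 2 tests, where 0.0357 is the smallest p possible. The difference from Col-0 was −0.26 in spt5l and −0.05 in ago4, and the Col-0 libraries themselves ran from −1.01 to 0.33.

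**Figure D2:**
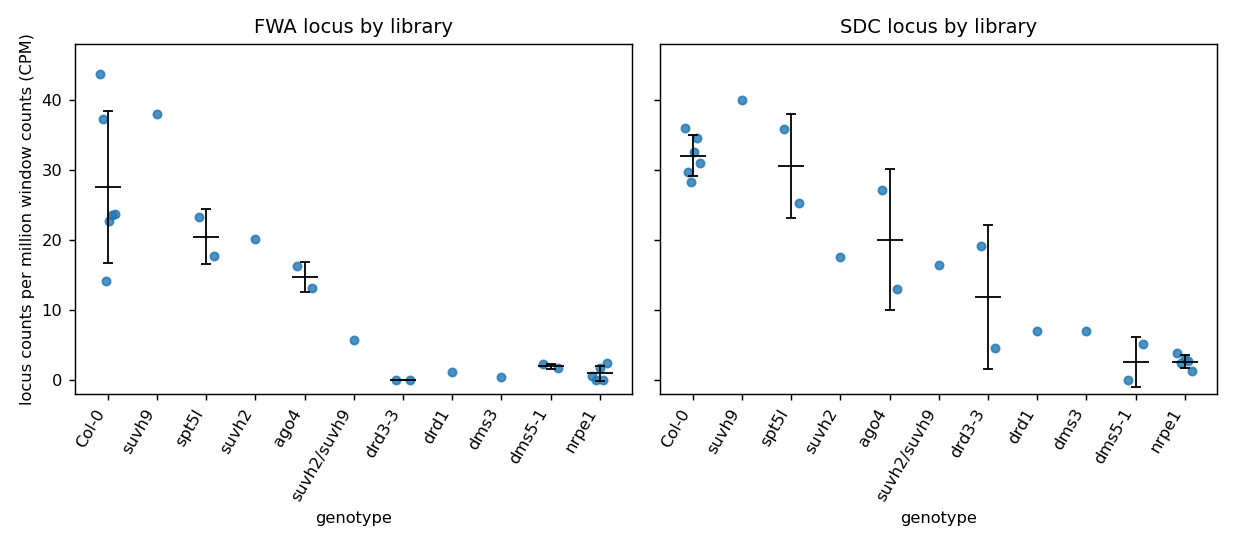
FWA (left) and SDC (right) locus reads in CPM for each library, by genotype; bars show mean and SD where a genotype has more than 1 library. Col-0 runs from 14.1 to 43.7 at FWA and from 28.3 to 35.9 at SDC, and at SDC the drd3-3 libraries lie at 19.1 and 4.53.

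The alleles dms5-1 and drd3-3, whose altered genes the labels do not name, had few reads at both genes and were not tested against each other. Dms5-1 had 2.19 and 1.69 CPM at FWA (2 counts in each of gp5 and gp6) and 0 and 5.07 CPM at SDC (0 and 6 counts). In each library the FWA counts lay 1 each in adjacent windows, which overlap, so they may come from 1 read. Drd3-3 had 0 reads at FWA in both libraries and 19.1 and 4.53 CPM at SDC (15 and 4 reads). At SDC drd3-3 was the higher of the pair in gp5 and the lower in gp6. Both mutants lay below every Col-0 library at both genes, as the plot of levels by library shows.

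In the 19-library fit dms5-1 was lower than Col-0 at FWA (−2.94 ± 0.80, adjusted p = 0.003) and SDC (−2.64 ± 0.72, adjusted p = 0.003). Loci called lower were 41.5% of all and loci called higher 8.34% (11833 and 2381; 16080 and 40 under class scaling), with a median of −1.54. The values moved with the library left out. FWA was −2.81 without dms5-1 of gp6 and −3.23 without that of gp5. SDC was −9.42 without dms5-1 of gp6 and −1.89 without that of gp5. None of these fits has replicates of dms5-1. Over the SDC gene body alone the change was −1.98 (adjusted p = 0.057).

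Drd3-3 was lower than Col-0 at FWA (adjusted p = 0.002), and this comparison again uses the same Col-0 libraries. With the floor of 3 counts over both libraries it was at least 16.4-fold lower per library total. At SDC the change of −0.63 ± 0.58 did not pass (adjusted p = 0.417). Of all loci 22.1% were lower and 9.25% higher (6319 and 2640; 12597 and 94 under class scaling). The SDC value moved with the settings. It was −1.97 (adjusted p = 0.028) under class scaling and −1.32 (adjusted p = 0.030) with DESeq2. In edgeR it was −1.45 (adjusted p = 0.071) with library totals and −1.32 (adjusted p = 0.086) with DESeq2's size factors. Without drd3-3 of gp5 it was −1.99 (adjusted p = 0.125), and without that of gp6 it was −0.06.

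Against nrpe1, SDC was higher in drd3-3 by 2.01 ± 0.64 (adjusted p = 0.033). Among all loci 0.764% were lower and 11.7% higher in this comparison. The 15 reads of gp5 carry the difference: without that library the change was 0.75 (adjusted p = 0.684). Leaving out nrpe1 of gp4 or gp6 gave 1.96 and 1.88 (adjusted p = 0.055 both), and using every second window gave 1.79 (adjusted p = 0.241). With the set fitted as a block it was 1.84 (adjusted p = 0.117). Without the 16 windows shared with AT2G17695 it was 3.06 ± 0.75 (adjusted p = 0.005). That alternative was added after the data were seen.

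FWA did not differ detectably between drd3-3 and nrpe1, where 0 and 6 reads were counted (adjusted p = 0.428). Dms5-1 did not pass against nrpe1 at either gene, with 1.44 ± 1.08 at FWA (adjusted p = 0.66) and 0.00 ± 0.73 at SDC (adjusted p = 1). In that comparison edgeR called 0% of loci lower and 0% higher. An unadjusted p under 0.05 was reached by 2666 of 28535 loci, and DESeq2 called 0 lower and 1 higher.

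The 5 genotypes with 1 library each belong to gp4, whose Col-0 library had 62 FWA reads and 89 SDC reads. They have no replicate check, and the intervals cover counting error only. Adjacent windows overlap, so 1 read can count in 2 of them, which the intervals do not allow for. The 3 FWA counts of drd1, for example, lay 1 each in adjacent windows. FWA had 3 reads in drd1 and 1 in dms3, or 4.60% (0.923 to 14.1) and 1.79% (0.0453 to 10.3) of the Col-0 level per library total. SDC had 20 and 17 reads, or 21.4% (12.5 to 35.0) and 21.2% (11.8 to 35.8). The nrpe1 library of gp4 kept 7.69% at FWA and 8.93% at SDC.

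The suvh2 and suvh9 single mutants differed in the same direction at both genes. FWA had 68 reads in suvh2 and 117 in suvh9, 88.9% (62.1 to 128) and 168% (122 to 232) of Col-0. SDC had 59 and 123 reads, 53.8% (38.0 to 75.5) and 123% (92.7 to 163). The suvh2 library stood at 0.531 of suvh9 at FWA (0.388 to 0.721) and at 0.438 at SDC (0.315 to 0.602). Under class scaling these ratios were 0.333 and 0.275.

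The double mutant had 14 FWA reads, 25.3% of Col-0 (13.1 to 45.7), and 40 SDC reads, 50.4% (33.8 to 73.9). Against the suvh2 library it stood at 0.285 at FWA (0.148 to 0.511) and at 0.937 at SDC (0.611 to 1.42). Against nrpe1 of the same set it was 3.29-fold at FWA (0.919 to 17.9) and 5.64-fold at SDC (2.23 to 18.3). Class scaling lowered the shares of Col-0 in suvh2, the double mutant, drd1 and dms3, to 54.8%, 11.6%, 1.89% and 0.836% at FWA. At SDC they became 33.1%, 23.2%, 8.78% and 9.90%.

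**Figure D3:**
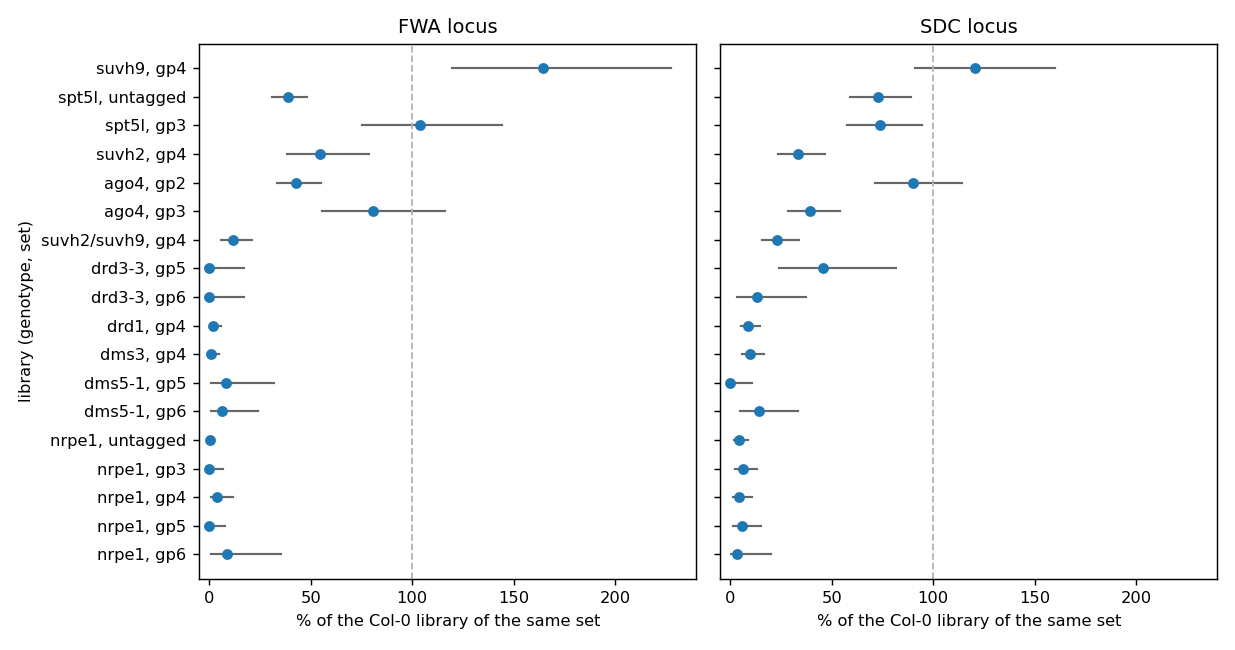
Reads of the FWA (left) and SDC (right) locus in each mutant library as a percentage of the Col-0 library of its set, with libraries scaled to their counts in windows not transcribed by Pol V. Lines are 95% intervals for counting error and the dashed line is 100%; drd3-3 of gp5 kept 0% at FWA and 45.8% at SDC, and suvh9 stood above 100% at both.

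Among the reads of the 2 genes together, FWA took 48% in Col-0 (exact 95% binomial interval 45.2 to 50.8). It took 40.1% in spt5l, 41.0% in ago4, 53.5% in suvh2 and 48.8% in suvh9. The share was 19.4% in nrpe1 (7.45 to 37.5), 25.9% in the double mutant (15 to 39.7), 13.0% in drd1 (2.78 to 33.6) and 5.56% in dms3 (0.141 to 27.3). In drd3-3 it was 0 of 19 reads (0 to 17.6). In dms5-1 it was 4 of 10 reads (12.2 to 73.8). With all SDC windows included, the intervals of nrpe1, the double mutant, drd1, dms3 and drd3-3 lay below that of Col-0. That of dms5-1 spanned it. The SDC reads that overlap AT2G17695 enter these shares. Without the shared windows SDC had 11 reads each in nrpe1 and drd1, 9 in dms3, 18 in drd3-3 and 29 in the double mutant. FWA had 6, 3, 1, 0 and 14 in the same order. Col-0 had 586 SDC reads without the shared windows and 597 FWA reads. No interval was computed on these counts, so whether any share differs from Col-0 without the shared windows was not tested. The intervals leave out the spread between libraries and the repeated counting of reads in overlapping windows. Col-0 had 69 FWA and 139 SDC reads in gp3, and 247 and 203 in the untagged set.

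DNA methylation was read from the authors' averages for each window and genotype, which carry no coverage and no replicate spread, so no test was made. In Col-0, FWA was methylated in the same block that held its Pol V reads. The RdDM windows from chr4:13038151 on had 92.6%, 86.3%, 80.5%, 75.5% and 30% CG methylation in Col-0 and 78.9%, 88.8%, 92.8%, 69.4% and 50% in nrpe1. CG methylation was thus lower in 2 windows and higher in 3. The first RdDM window had no value.

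Non-CG methylation of the FWA block was at or near 0 in nrpe1. CHH methylation in these 5 windows was 17.2%, 23.6%, 18.0%, 16.9% and 0.714% in Col-0, and at most 0.250% in nrpe1. CHG methylation, measured in 3 of them, was 26.9%, 17.4% and 5.56% in Col-0 and 0%, 0.909% and 0% in nrpe1. All 5 windows were lower for CHH and all 3 for CHG.

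SDC also kept CG methylation and lost most CHH, but kept much of its CHG methylation. Mean CG methylation over its 7 RdDM windows was 74.4% in Col-0 and 81.5% in nrpe1, higher in 6 of 7. CHH methylation was 1.11%, 3.15%, 5.18%, 5.99%, 6.73%, 14.7% and 5.99% in Col-0. In nrpe1 it was 0.906%, 2.71%, 0.219%, 0.649%, 3.10%, 0% and 0.747%, lower in all 7. The window with most CHH in Col-0 was the one with most Pol V reads.

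CHG methylation at SDC was lower in 5 of 6 windows and ranged from 3.36% to 67.8% in Col-0 and from 9.10% to 42.6% in nrpe1. At chr2:7681951-7682150 it was 65.3% and 20%, and at chr2:7682251-7682450, just beyond the RdDM windows, 47.8% and 36.5%. In the 4 RdDM windows below the 1 kb limit, CHG was at most 15.8% in Col-0 and at most 2.78% in nrpe1. All 4 distal windows thus lay below both of the windows named above in each genotype.

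**Figure D4:**
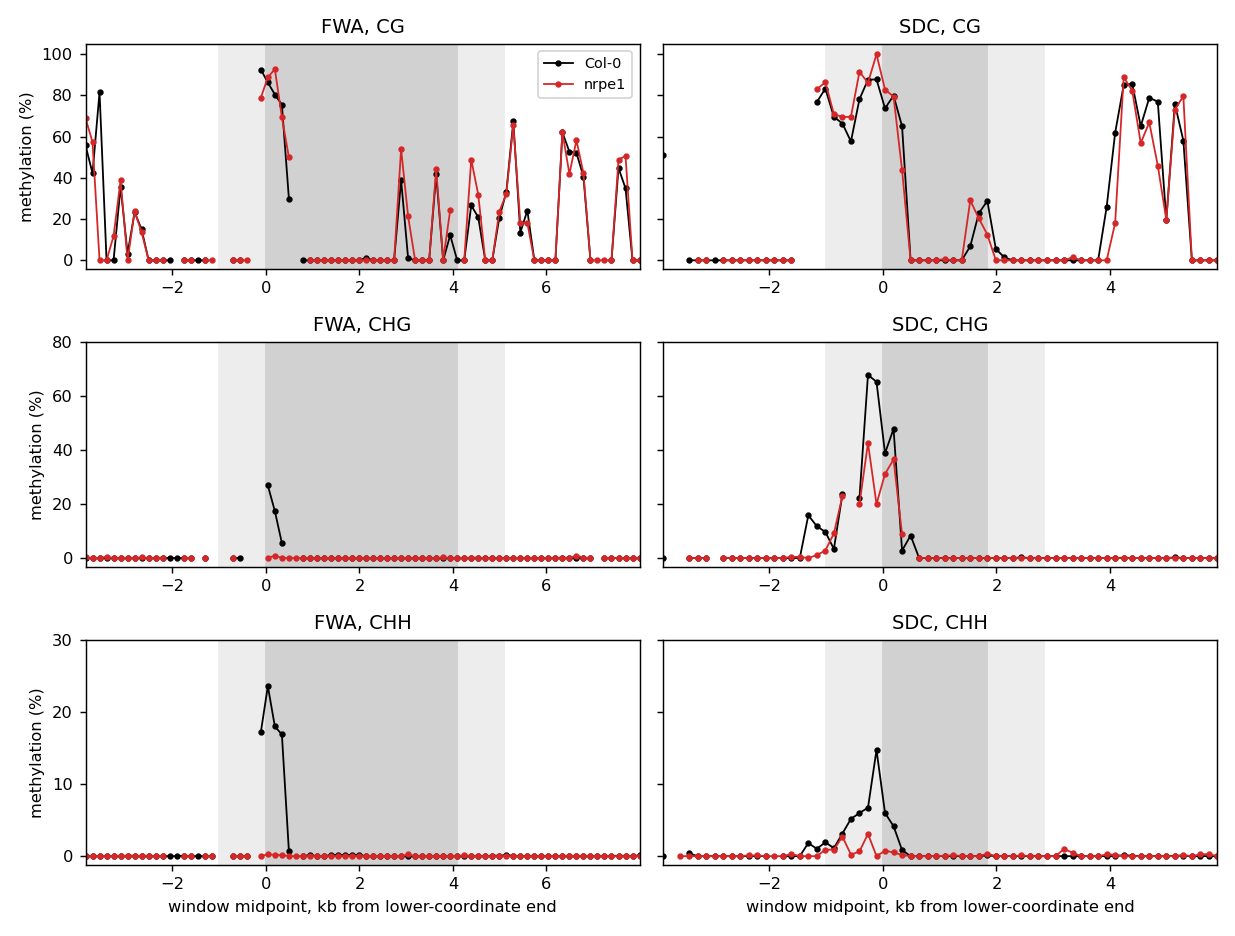
CG, CHG and CHH methylation (%) per window in Col-0 (black) and nrpe1 (red), the authors' averages, against the distance of the window midpoint from the lower-coordinate end of FWA (left) and SDC (right); dark grey is the gene and light grey the 1 kb around it, and windows without a value have no point. CHH over the FWA block reaches 23.6% in Col-0 and 0.250% in nrpe1, while CG reaches 92.6% and 92.8%.

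Set beside all RdDM windows of the genome, both genes kept less non-CG methylation in nrpe1. Averaged over windows with a value in both genotypes, FWA kept 0.744% of its Col-0 CHH and SDC 19.4%, against 71.0% for 134490 RdDM windows. For CHG, FWA kept 1.83% and SDC 65.9%, against 96.8% for 124006 windows. CG was kept at 104% and 110%, against 100% for 123762 windows. These are ratios of means with no interval.

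CG methylation was also found away from the RdDM windows. In FWA, CG methylation of 39.0% in Col-0 and 54.0% in nrpe1 was found at chr4:13041151-13041350, and of 41.7% and 44.2% at chr4:13041901-13042100, with CHG and CHH at 0%. At the higher-coordinate end of SDC the windows from chr2:7683601 to chr2:7684100 had 6.85%, 22.8% and 28.9% CG in Col-0 and 29.1%, 20.4% and 12.5% in nrpe1, with 0% CHG. These SDC windows are of the non-RdDM Pol V class and are the ones that held 8, 9 and 13 Col-0 reads.

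A list of 12 other genes known to be silenced or tuned by methylation in or near them was examined by the same locus sums. Of 9 tested in nrpe1 against Col-0, 7 were lower and none higher, where 51.2% of all loci were lower and 31.5% higher. FIS2 (0.30 ± 0.47) and PAI2 (0.05 ± 0.49) did not pass. The list's median was −3.07, against −1.24 over all loci. The lower ones were QQS, ALN, ROS1 (listed as DML1), MEA, PHE1, HISN6B and BNS. Under class scaling and with library totals all 9 were lower, as were 13533 and 12349 of the 20828 loci.

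QQS, a regulator of starch content, had 54.6 to 97.4 CPM in Col-0 and at most 2.39 in nrpe1 (−4.60 ± 0.59, adjusted p = 1.7e-06). ROS1, a DNA demethylase, had 29.1 to 88.7 and at most 4.66 CPM (−3.43 ± 0.52, adjusted p = 6.3e-06). MEA, an imprinted Polycomb gene of the endosperm, had 9.98 to 28.2 and at most 1.02 CPM (−3.88 ± 0.67, adjusted p = 2.2e-05). ALN, allantoinase, had 26.5 to 37.9 and at most 7.80 CPM (−1.38 ± 0.46, adjusted p = 0.009). In each of these the groups did not overlap. These genes were taken from those called lower, and how many of all loci show no overlap was not counted.

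In spt5l and ago4 edgeR and DESeq2 called none of the 11 tested (medians 0.02 and −0.20), and 1 and 0 had an unadjusted p under 0.05. Of 11 tested, 8 were lower in dms5-1 and 5 in drd3-3 against Col-0, where 41.5% and 22.1% of all loci were lower, and none was higher. Against nrpe1, none passed in dms5-1 with edgeR or DESeq2, with 1 at an unadjusted p under 0.05, and BNS was higher in drd3-3 (2.98 ± 0.84, adjusted p = 0.014).

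Among the 15 other HD-ZIP IV genes, the family of FWA, 10 were tested and 4 were lower in nrpe1, namely HDG3, HDG8, HDG9 and HDG10, where 51.2% of all loci were lower. HDG9 had 74.8 to 160 CPM in Col-0 and at most 5.09 in nrpe1 (−4.07 ± 0.59, adjusted p = 4.2e-06). HDG10 had 26.4 to 72.1 and at most 4.78 CPM (−4.03 ± 0.66, adjusted p = 1.4e-05). HDG8 had 13.7 to 34.0 and at most 0.666 CPM (−5.10 ± 0.70, adjusted p = 2.6e-06). HDG3 had 20 to 39.8 and at most 11.5 CPM (−1.47 ± 0.49, adjusted p = 0.008). None of these 4, all called lower, overlapped between the groups, and how many of all loci show no overlap was not counted.

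GL2, ATML1 and HDG1 were called higher under TMM scaling, at 1.08, 1.37 and 1.61, and were not called higher with library totals, DESeq2's size factors or class scaling. The family median was 0.19 under TMM and −1.93 under class scaling. HDG8, HDG9, HDG10 and HDG3 were lower under each of these scalings. ANL2 did not pass under TMM (−0.43, adjusted p = 0.324) and was lower under the other 3 and with DESeq2, and PDF2 was lower under class scaling. In dms5-1, 5 of 12 tested were lower than Col-0, against 41.5% of all loci. In drd3-3, 4 were lower, against 22.1% of all loci, and 1, ATML1, was higher. DESeq2 called 5 lower and 0 higher in drd3-3, so the ATML1 call was lost. In spt5l and ago4 edgeR and DESeq2 called none of 12, and none had an unadjusted p under 0.05. Against nrpe1 edgeR called none in dms5-1 or drd3-3, with 4 and 3 at an unadjusted p under 0.05, and DESeq2 called 0 and 2, the latter HDG9 and HDG10 as higher in drd3-3.

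The neighbours of FWA had few reads. SLK1 had 6.95 ± 1.88 CPM in Col-0 (SD, n = 6) and 2.57 ± 2.08 in nrpe1 (n = 5). Its log2 change was −0.07 ± 0.50 under TMM (adjusted p = 0.897), and it was called lower with library totals, class scaling and DESeq2. MSH3, with 25 reads over the 6 Col-0 libraries, was not tested. The neighbours of SDC, AT2G17680 and AT2G17695, were lower at −3.37 ± 0.66 (adjusted p = 8.7e-05) and −1.44 ± 0.49 (adjusted p = 0.010). Both of their loci share windows with SDC. In the AT2G17680 gene body alone 8 reads were counted in Col-0 and 0 in nrpe1.

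The loci whose levels followed FWA most closely over the 24 libraries were AT5G44575, AT5G26300, RGF3, AT1G18550 and AT1G36050, with Pearson r of log2(CPM + 1) from 0.960 to 0.976. For SDC they were AT1G29075, AT4G10613, ARF21, NFD5 and AT5G05455, with r from 0.963 to 0.965. The median r was 0.706 over 20826 loci for FWA and 0.740 over 20824 for SDC, and FWA and SDC correlated with each other at 0.780. These values describe libraries that share genotype, depth and ribosomal share.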

How the data were processed

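Per the labels' protocols, IPARE sequenced 5′ ends of RNA pulled down with an anti-NRPE1 antibody by template switching, and leaf DNA was bisulfite sequenced. The submitters' processing notes name UMI-tools, cutadapt, Bowtie2, Bismark and TAIR10, with neither role nor version for any of them. Read counts as deposited are whole numbers in 794311 windows of 200 bp starting every 150 bp, and the authors added average methylation levels as a fraction to the same table, printed here as percentages; their depth is unknown. The class lists come from a hidden Markov model and are tied by the labels to Col-0 and nrpe1 of the untagged set, gp3 and gp4.

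Windows with midpoints in a gene or within 1 kb were summed for 37887 genes of a RefSeq table (TAIR10.1, no strand), whose coordinates are not printed. Sums were tested with edgeR 4.0.16 in R 4.3.3 (quasi-likelihood, TMM, filterByExpr with minima of 10 and 15, Benjamini-Hochberg, threshold 0.05), after the procedure was tested on simulated data. Col-0 and nrpe1 were compared in their 11 libraries, the 4 other replicated mutants in 1 fit of 19. DESeq2 1.42.0, other scalings, filters, window choices and left-out libraries were alternatives. Ratios used a pseudocount of 0.5, and likeness a pseudocount of 1 among loci over 10 kb away. Library totals of 785943 to 6957714 counts set the precision, and intervals and floors (3 counts) cover counting error only. Locus counts sum windows that overlap, so a read in an overlap counts more than once and intervals over a locus are too narrow. Whether replicates were grown apart is not stated in the labels, so p-values measure the spread between libraries, which may be technical. No 2 libraries of a genotype agreed within sampling noise (chi-square per degree of freedom at least 5.57). Named genes were both members, 3 non-adjacent top windows of each, their closest 5 loci, 2 gene lists and the neighbours. Members and lists were chosen with earlier results of these data known.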

Additional observations from a re-analysis of the deposited data

Results flagged for a closer look

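Of 20 groups of library values examined, 3 held a library far from the others, where chance flags about 1 in 20. The nrpe1 library of gp6 had an SDC level of 3.73 on the scale of CPM over counts in windows not transcribed by Pol V, below the other 4 nrpe1 libraries, and it rests on 1 read. The other 2 are single reads in nrpe1: 0.478 CPM at FWA chr4:13038301-13038500 in the untagged set, and 0.582 CPM at FWA chr4:13038601-13038800 in gp4, where the remaining nrpe1 libraries had 0.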

How the results depend on the processing

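Of 233 alternative values for the FWA and SDC locus tests, 216 kept direction and side of the threshold, among them all 19 for FWA and all 20 for SDC in nrpe1 against Col-0. In the other 17 the cause was not tested. SDC in spt5l was 0.092 over the gene body. SDC in dms5-1 against Col-0 was −1.98 over the gene body, and in dms5-1 against nrpe1 −0.40 without the windows over AT2G17695. SDC in drd3-3 against Col-0 was −1.97 under class scaling and −1.32 with DESeq2, and against nrpe1 1.79 with every second window. Leaving out 1 library gave −0.84 to 0.0066 for SDC in ago4, −3.23 to −2.76 for FWA and −9.42 to −1.89 for SDC in dms5-1, and, against nrpe1, −6.69 to 0.85 for SDC in dms5-1 and 0.75 to 2.68 in drd3-3. It gave 0 to 4 FWA windows and 0 to 1 SDC windows called lower, and 6 and 8 were called with the looser filter. The FWA to SDC ratio in ago4 ranged from −0.43 to 0.33. Under class scaling, shares of Col-0 in gp4 were 54.8% (suvh2) and 11.6% (double mutant) at FWA, and 8.78% (drd1), 9.90% (dms3), 33.1% (suvh2) and 23.2% (double mutant) at SDC. Restricting methylation to RdDM windows gave, for Col-0 and nrpe1, 73.0% and 76.0% CG, 16.6% and 0.303% CHG, and 15.3% and 0.114% CHH at FWA. At SDC it gave 74.4% and 81.5%, 36.9% and 24.3%, and 6.13% and 1.19%. Over all windows these were 15.5% and 18.5%, 1.51% and 0.046%, and 2.10% and 0.025% at FWA, and 28.1% and 29.1%, 11.3% and 7.97%, and 1.85% and 0.374% at SDC.

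Sets were also fitted as a replicate block. Col-0 and nrpe1 of the same set deviated together with r of 0.086 to 0.374 (5 pairs), other sets with −0.273 to 0.161, and 8 of 10 libraries correlated best with their own set, so the sets were not taken as pairs. With the block 10509 loci were lower and 5609 higher in nrpe1. SDC was then −0.088 in dms5-1 and 1.84 (adjusted p = 0.117) in drd3-3, both against nrpe1.

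Counts of called loci also moved with the settings. Higher loci in nrpe1 numbered 1 to 6733 and lower ones 3699 to 13533. Lower loci ranged from 20 to 372 in spt5l, 181 to 1269 in ago4, 5039 to 16080 in dms5-1 and 2354 to 12597 in drd3-3. Leaving out 1 library gave 0 to 312 in spt5l, 157 to 810 in ago4, 7503 to 11862 in dms5-1 and 1879 to 6206 in drd3-3. Depth limits single windows: 0 reads allows 3.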
